A study of Homo sapiens with 12 samples.

Results

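Messenger RNA was compared between BT474 cells labelled BRD8 knockout (KO) and parental BT474 cells, both kept in DMSO, the solvent that served as the drug control. The comparison used 6 of the study's 12 bulk RNA sequencing libraries, 3 of each genotype, chosen by their labels for genotype and treatment. Of the 27814 named genes in the count table, 16208 had enough counts to be tested. BT474 is an established breast cancer line that carries hormone receptors and an amplified ERBB2 (HER2) gene, and the series concerns BRD8 in resistance of such cells to combined oestrogen receptor (ER) and HER2 inhibition. The other 6 libraries came from the same 2 genotypes after 200 nM neratinib, which irreversibly blocks the kinases of the ErbB family, for 4 h. They lent their spread to the statistical fit and are otherwise used only in the last comparison. The labels give no guide, edited position or clone for the KO-labelled cells. Whether replicates came from separate cultures is not said either, so each p-value reflects the spread among these libraries alone, which may be technical.

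BRD8 is a bromodomain protein, which means that it binds acetylated lysines, and it is a subunit of the TIP60-EP400 complex. That complex acetylates histone tails through its catalytic subunit KAT5 (TIP60) and uses the ATPase EP400 to place the histone variant H2A.Z at promoters and enhancers. It is known as a partner of transcription factors that include MYC, p53 and nuclear hormone receptors.

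BRD8 itself was read first, since it checks the genotype label. Its level was 64.9, 63.5 and 64.1 CPM (read counts relative to library size, with edgeR's TMM scaling) in parental replicates 1, 2 and 3, and 67.4, 66.1 and 68.8 CPM in the KO-labelled ones. All 3 KO-labelled libraries therefore lay slightly above the parental range, with a log2 fold change of 0.07, SE 0.027 (adjusted p = 0.0189, Benjamini-Hochberg, edgeR's quasi-likelihood test). DESeq2 did not call this difference (adjusted p = 0.106), nor did edgeR with DESeq2-style size factors (adjusted p = 0.0648). It was also not called without parental replicate 2 or 3 or without KO-labelled replicate 1 or 3 (adjusted p = 0.0755, 0.105, 0.0911 and 0.104, edgeR). The mRNA level thus did not separate the genotypes in the direction of a loss, and the cells are called KO-labelled below.

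Library totals over named genes were 38301779 to 41064117 counts in parental and 33468512 to 44726160 in KO-labelled cells, and replicates of a group correlated at a Spearman rho of 0.9985 to 0.9987. All 16 markers listed for BT474 had enough counts to be tested, though TFAP2B had 17 counts in parental and 30 in KO-labelled libraries. ERBB2 and keratin genes made up most of their summed level of 20662 to 20908 CPM in parental and 21586 to 21965 CPM in KO-labelled libraries. Of the 16, 7 passed the test as higher and 8 as lower, and GRB7 and ERBB2, of the amplified HER2 segment, rose by 0.56 and 0.12 on the log2 scale. KO-labelled replicate 3 stood apart in several connective tissue and mesenchymal genes, though not in all. LGALS1 (galectin-1) was at 0.279, 0.318 and 3.5 CPM in KO-labelled replicates 1, 2 and 3, against 0.503, 0.537 and 0.449 in parental cells. Without replicate 3 its log2 fold change went from 1.30 to -0.72 and was no longer called. SPARC, which was not tested for low counts, was at 0.0507, 0.0682 and 1.35 CPM in the KO-labelled libraries and at no more than 0.0755 CPM in any parental one. In KO-labelled replicates 1, 2 and 3, AXL was at 0.0507, 0 and 0.797 CPM and CAVIN1 at 0.127, 0.136 and 0.858 CPM. FN1 was at 0.988, 0.841 and 2.48 CPM there, against 1.48, 1.18 and 1.53 CPM in parental cells. TWIST1, at 19.06, 18.65 and 18.76 CPM, did not stand apart. The collagen gene COL3A1 was at 1.85, 1.36 and 4.6 CPM in KO-labelled and 0.327, 0.456 and 0.502 CPM in parental cells. Its log2 fold change was 2.53, and 1.89 without KO-labelled replicate 3.

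Differences between the genotypes were widespread, and the large ones ran mostly upwards. At a size of at least 2-fold with an adjusted p below 0.05, 1441 genes (8.89% of those tested) were higher and 561 (3.46%) were lower in KO-labelled cells. Together these were 2002 genes, or 12.4%. At any size, 11609 genes (71.6%) differed, 5834 (36%) higher and 5775 (35.6%) lower, and the median log2 fold change of all genes tested was 0.002. Replicates were so close, with a common coefficient of variation of 1.86%, that very small differences passed, so counts at 2-fold are given beside those at any size for each list described below in which 5 or more members reached it. With the spread of all genes set to a coefficient of variation of 0.1, the genes named here that lost their call were BRD8, EP400, ESR1, ERBB2, EEF1A1, ACTG1 and ACTB. Tested directly for a change beyond 2-fold with edgeR's glmTreat, 1072 genes (6.61%) passed, 819 (5.05%) higher and 253 (1.56%) lower. In 128 genes the rise reached 8-fold, and in 40 the fall did. The 2-fold rises were concentrated in scarce transcripts. Among 2884 genes with a mean below 1 CPM, 24.9% rose and 7.8% fell at least 2-fold. Among 2258 genes at 100 CPM or more, 1.11% rose and 0.753% fell, which is 25 and 17 genes. The 3 libraries of one genotype did not overlap those of the other in 72.8% of genes tested, which is the background for each statement on overlap below. Each gene said below to have risen or fallen passed edgeR's quasi-likelihood test, with a Benjamini-Hochberg adjusted p of at most 0.0189. Values in brackets are log2 fold changes of KO-labelled over parental cells with their standard errors (SE).

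**Figure D1:**
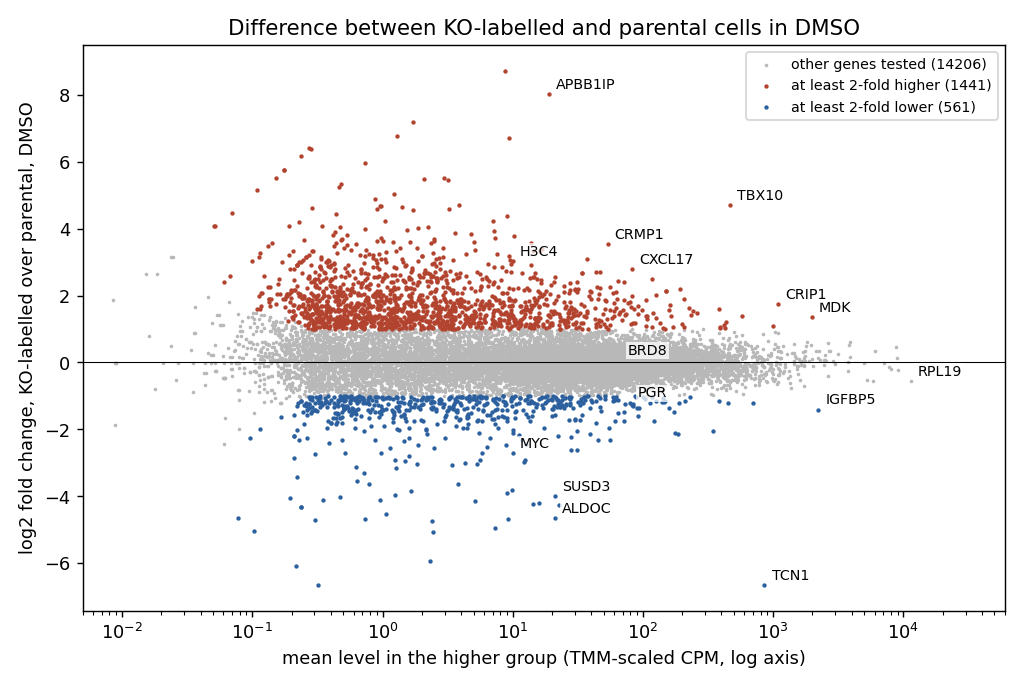
Log2 fold change of KO-labelled over parental cells in DMSO (vertical axis) against the mean level of the higher group in TMM-scaled CPM (log axis), 1 point per gene tested. Red points are the 1441 genes at least 2-fold higher, blue points the 561 at least 2-fold lower. TBX10 and TCN1 stand out for large differences at high levels.

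TBX10, a T-box transcription factor gene, gave the largest rise among genes of at least 10 CPM in both genotypes. It was at 17.5, 18.2 and 18.6 CPM in parental and 457, 469 and 477 CPM in KO-labelled libraries, a log2 fold change of 4.69, SE 0.028. APBB1IP, which encodes a Rap1-binding adaptor known mainly from blood cells, went from 0.0755, 0.107 and 0.0264 CPM to 18.8, 19.5 and 18.7 CPM. In both genes the lowest KO-labelled library was many times above the highest parental one. CRMP1, a cytoskeletal regulator of neuronal growth cones, was at 4.93, 4.38 and 4.46 CPM in parental and 53, 53.6 and 53.8 CPM in KO-labelled cells (3.54, SE 0.054). CXCL17, a mucosal chemokine, was at 12.8, 11.2 and 11.8 against 81.8, 79 and 87.2 CPM (2.79, SE 0.043). LGALS9, galectin-9, rose from 1.74, 1.69 and 1.4 to 16.4, 16.1 and 16.2 CPM (3.33, SE 0.087). None of these 3 genes overlapped between the genotypes.

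The other leading rises were spread over enzymes, matrix and signalling genes. DHRS9, a retinol and steroid dehydrogenase, rose by 3.78 on the log2 scale, and FMO1, a flavin monooxygenase, by 2.92. A2ML1, a protease inhibitor of stratified epithelia, rose by 3.58, and the calpain protease CAPN9 rose by 3.09. NDST4, a heparan sulphate sulphotransferase, rose by 3.38, the fibrillar collagen COL5A1 by 3.33 and PLEKHS1 by 2.71. Each of these 7 was at least 10 CPM in KO-labelled cells, and their parental means were between 0.741 and 6.63 CPM.

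TCN1, which encodes the vitamin B12 carrier haptocorrin, had the largest fall among genes of at least 10 CPM in either genotype. Its level was 857, 849 and 864 CPM in parental and 8.29, 8.51 and 8.95 CPM in KO-labelled libraries, a log2 fold change of -6.64, SE 0.030. ALDOC, the brain-type aldolase of glycolysis, fell from 20.9, 22 and 20 to 0.659, 0.864 and 0.981 CPM (-4.66, SE 0.097). The ER-associated gene SUSD3 was at 20.8, 21.7 and 20.8 CPM in parental and 1.34, 1.32 and 1.29 CPM in KO-labelled cells (-4.00, SE 0.090). In all 3 genes every KO-labelled library was below every parental one by more than 10-fold. FGD3, a guanine exchange factor gene next to SUSD3 on chromosome 9, fell by 4.25. The kallikrein protease KLK11 fell by 4.23 and the cytochrome P450 pseudogene CYP2B7P by 4.21, both from families with near-copies, so their single-gene values are uncertain. SCUBE2, a secreted hedgehog pathway protein, fell by 2.98, and the transcribed pseudogene FER1L4 by 2.90. AFF3, a subunit of transcription elongation complexes, fell by 2.63, the adaptor TRIP6 by 2.62 and RUFY3 by 2.43.

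**Figure D2:**
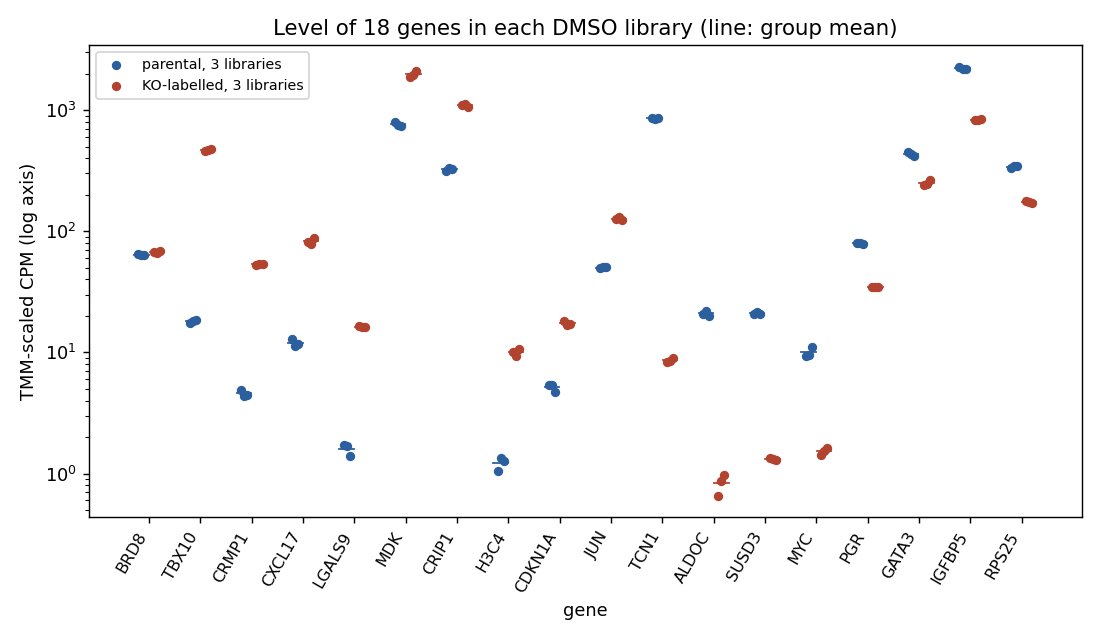
TMM-scaled CPM (log axis) of 18 genes in the 3 parental (blue) and 3 KO-labelled (red) DMSO libraries, 1 point per library with a line at the group mean. BRD8 is nearly level, while TBX10 and TCN1 lie far apart in opposite directions and the points of a genotype lie close together.

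Ranked by the change in mean CPM, other genes came first. MDK, which encodes the growth factor midkine, went from 767 ± 33 to 1969 ± 118 CPM (SD, n = 3). CRIP1, a LIM-domain protein, went from 326 ± 8.89 to 1097 ± 28.2 CPM. Other large gains included stress and housekeeping genes: the chaperone HSP90AA1 rose by 0.62 and ferritin heavy chain FTH1 by 0.51 on the log2 scale. PTMA (prothymosin alpha) rose by 0.57, the aldehyde dehydrogenase ALDH3B2 by 0.62, YWHAZ by 0.52 and LASP1 by 0.35.

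The largest loss in CPM was of RPL19, a ribosomal protein gene near ERBB2 on chromosome 17, at 11994, 11287 and 10812 CPM in parental and 7496, 7452 and 8169 CPM in KO-labelled libraries. IGFBP5, an insulin-like growth factor binding protein, fell from 2285, 2194 and 2175 to 824, 834 and 849 CPM, a log2 fold change of -1.41, SE 0.021. In both genes the KO-labelled libraries were lower without overlap. The mitochondrial ribosomal RNA RNR2 fell by 0.57, RPL23 by 0.52, the actin crosslinker FLNA by 0.69 and RPS3 by 0.41. EEF1A1, ACTG1 and ACTB fell by 0.22, 0.20 and 0.13.

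Subunit genes of the complex that holds BRD8 differed little. Of the 19 tested, 7 passed the test as higher and 8 as lower, none of them 2-fold, with a median log2 fold change of -0.06. EP400 was at 108, 102 and 103 CPM in parental and 101, 97.3 and 100.3 CPM in KO-labelled libraries, and its log2 fold change of -0.07 was not called without parental replicate 1 or KO-labelled replicate 2. KAT5 was at 74.6 ± 1.89 to 77.4 ± 0.595 CPM and was not called (adjusted p = 0.066, edgeR), although it was with scaling by library totals and with genes limited to means of 5 CPM or more. The scaffold EPC2 rose by 0.84 and ING3, which reads methylated histone H3, by 0.35, while MEAF6 fell by 0.59 and the very large scaffold TRRAP by 0.34. The other machinery for H2A.Z, the SRCAP and INO80 complexes with the H2A.Z genes, had 19 members tested, of which 6 passed the test as higher and 11 as lower. The INO80 subunit ACTR5 fell by 1.17 and NFRKB by 0.66.

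Other chromatin genes went both ways, and in the next 3 lists 3 members in all were changed at least 2-fold. Of 43 bromodomain and acetyltransferase genes, 18 passed the test as higher and 14 as lower. The chromatin reader SP140L rose by 1.67 and BRD9, of a SWI/SNF complex, fell by 0.68. Of 18 deacetylase genes 7 passed the test as higher and 6 as lower. HDAC9 rose from 1.23, 0.993 and 1.56 to 9.86, 9.37 and 10 CPM (2.94, SE 0.106), with no overlap. Of 37 polycomb and DNA methylation genes, 13 passed the test as higher and 19 as lower. The methylcytosine dioxygenase TET1 fell by 0.87.

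Replication-dependent histone genes had the highest share of 2-fold rises among the lists described here. They encode the core and linker histones that package new DNA in S phase, and their mRNAs normally end in a stem-loop in place of a poly(A) tail. Of the 54 tested, 49 were higher, 46 of them at least 2-fold, and none was lower. The median log2 fold change was 1.72. Their summed level was 391.5 to 414.2 CPM in the parental and 1341 to 1372 CPM in the KO-labelled libraries. H3C4 was at 1.06, 1.34 and 1.27 CPM in parental and 10.1, 9.35 and 10.6 CPM in KO-labelled libraries, a log2 fold change of 3.03, SE 0.11. H2AC13 was at 0.931, 0.993 and 1.19 and 5.83, 5.78 and 5.77 CPM (2.48, SE 0.12), and H2AC14 rose by 2.39. The genotypes did not overlap in H3C4 or H2AC13. Near-identical copies make single histone genes uncertain, since the counting of reads with several matches is not given in the sources used here. H2AC18 and H2AC19 had the same parental mean, 34.2 CPM, and the same KO-labelled mean, 151 CPM. The means of H4C14 and H4C15 were nearly equal too. The same reads may therefore have been credited to more than one gene. The summed level and the numbers of higher genes given above may include such repeats. Because libraries were made with a kit that selects poly(A), the histone read counts come from the part of histone mRNA that the selection let through. More mRNA and a larger part with a poly(A) tail cannot be told apart. Of the 12 replication-independent histone genes, 8 passed the test as higher and 3 as lower, with a median of 0.10. H3-3A, which encodes the variant H3.3, rose by 0.47, and macroH2A gene MACROH2A2 fell by 0.58.

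The annotated promoters of 2 histone genes with large rises are given as examples. They come from RefSeq (GRCh38.p14) and hold the 250 bases before the gene start, 5′ to 3′ in the direction of transcription. H3C4 is on the minus strand with the window at chr6:26199294-26199543, and H2AC13 on the plus strand with the window at chr6:27807923-27808172. Capitals mark CCAAT (or ATTGG, its reverse complement) and TATAAA (or TTTATA).
H3C4: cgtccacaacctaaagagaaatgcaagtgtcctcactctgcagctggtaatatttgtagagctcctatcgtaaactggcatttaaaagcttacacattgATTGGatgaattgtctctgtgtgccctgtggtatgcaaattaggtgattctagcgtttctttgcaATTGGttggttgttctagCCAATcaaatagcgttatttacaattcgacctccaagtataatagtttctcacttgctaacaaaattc
H2AC13: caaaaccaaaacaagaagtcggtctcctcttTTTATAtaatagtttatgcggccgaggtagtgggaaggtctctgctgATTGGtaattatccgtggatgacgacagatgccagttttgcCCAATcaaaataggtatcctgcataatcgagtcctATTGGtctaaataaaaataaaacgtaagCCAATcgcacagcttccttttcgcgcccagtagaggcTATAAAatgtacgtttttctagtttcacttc
CCAAT was present on either strand in 43 of 51 histone promoters matched (84.3%), searched from 250 bases before to 50 after the start, against 36.6% of 12305 promoters of genes tested. TATAAA was present in 35 of 51 (68.6%), against 6.57%. The window given for H3C4 had 3 matches to CCAAT and none to TATAAA. It rests on an annotated gene span of chr6:26196784-26199293 and runs into the neighbouring histone gene H2BC7 (chr6:26199516-26199988). Its matches therefore cannot be assigned to H3C4 alone. These are descriptions of sequence; binding was not measured.

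The MYC gene and the machinery that makes ribosomes were lower. MYC, a transcription factor that promotes growth, was at 9.34, 9.61 and 11.1 CPM in parental and 1.42, 1.52 and 1.63 CPM in KO-labelled libraries, without overlap (-2.72, SE 0.105). Of 14 genes of the MYC network, MYC included, 7 passed the test as higher and 4 as lower, and the repressor MNT rose by 0.83, MLXIPL by 0.81 and MYCL by 0.77. PVT1, the long non-coding RNA next to MYC, fell by 1.30. Of 56 genes for rRNA synthesis and processing, 4 passed the test as higher and 44 as lower, none of them 2-fold, with a median log2 fold change of -0.32. TAF1D, a factor of RNA polymerase I, fell by 0.94, the polymerase III subunit POLR3G by 0.84, and the nucleolar proteins NOP16 and NOP2 by 0.73 and 0.65. The E-box CACGTG, a palindrome to which MYC can bind, was present in 16 of 46 promoters of this list (34.8%) against 9.78% of those of genes tested. It was present in 3 of 67 promoters of cytosolic ribosomal proteins (4.48%) and 1 of 22 of small nucleolar RNA host genes (4.55%), lists that also fell. Binding of MYC was not measured, and its part in these falls was not tested.

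Cytosolic ribosomal protein mRNAs fell by small, even amounts. Of 83 tested, 80 were lower and 1 was higher, with a median log2 fold change of -0.40. Only RPL36A, at 2.81 CPM in parental cells, fell at least 2-fold (-1.13). RPS25 was at 332, 348 and 347 CPM in parental and 177, 175 and 173 CPM in KO-labelled libraries (-0.97, SE 0.022). RPS21 was at 185, 196 and 189 and 96.9, 98.6 and 94.4 CPM (-0.97, SE 0.026), and RPS27A fell by 0.76. Both RPS21 and RPS25 were lower without overlap. Processed copies elsewhere in the genome make single ribosomal protein genes uncertain. Vertebrate ribosomal protein mRNAs typically begin with C and a run of pyrimidines, the feature through which mTOR controls their translation. The starts of these 2 genes are given for that reason (RefSeq, GRCh38.p14, 100 bases before to 10 after the start). RPS21 is on the plus strand at chr20:62387003-62387112 and RPS25 on the minus strand at chr11:119018334-119018443. Capitals mark the first 5 transcribed bases.
RPS21: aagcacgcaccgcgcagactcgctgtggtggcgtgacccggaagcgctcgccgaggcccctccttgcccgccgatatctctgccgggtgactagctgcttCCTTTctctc
RPS25: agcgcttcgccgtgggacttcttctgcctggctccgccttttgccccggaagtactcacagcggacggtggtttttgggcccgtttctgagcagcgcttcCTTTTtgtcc
A start of C followed by 4 pyrimidines was annotated in 44 of 67 ribosomal protein genes matched (65.7%) and in 5.07% of all genes tested.

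Other parts of the translation apparatus fell less evenly. Of 53 translation factor genes, 12 passed the test as higher and 30 as lower. EIF2S2, the beta subunit of the initiation factor that carries initiator tRNA, fell by 0.90 and the elongation factor EEF1G by 0.75. Of 81 mitochondrial ribosomal protein genes, 13 passed the test as higher and 52 as lower, with a median of -0.14, led by MRPL12 (fell by 0.81) and MRPL16 (fell by 0.78). Host genes of small nucleolar RNAs (snoRNAs), whose introns hold the guides for rRNA modification, were lower in 21 of 25 cases, 5 of them at least 2-fold, and higher in 1, with a median of -0.59. Among host genes averaging 5 CPM or more, 1 was at least 2-fold lower and the median was -0.57. SNHG15 was at 26.6, 29.2 and 30.8 CPM in parental and 11.1, 10.8 and 11.9 CPM in KO-labelled libraries, and SNHG17 fell by 2.03. The 89 genes annotated as snoRNAs themselves, which poly(A) selection and library size limits capture poorly, had a median of -0.62, with 41 lower and none higher.

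**Figure D3:**
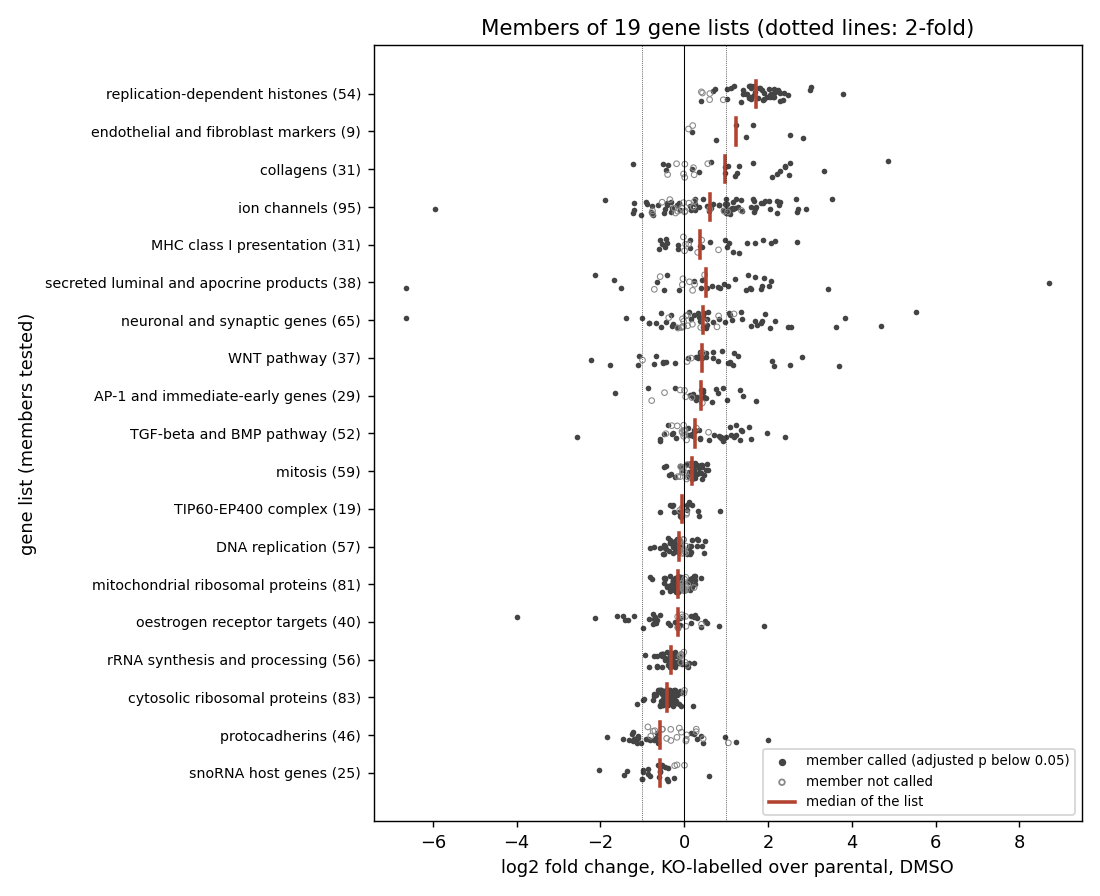
Log2 fold change of KO-labelled over parental cells in DMSO (horizontal axis) for the members of 19 gene lists, 1 point per gene tested, filled where called at an adjusted p below 0.05, with the list median as a red bar. Most histone genes lie to the right of the 2-fold line and ribosomal protein genes form a tight band left of 0, while channel, collagen and neuronal lists spread widely.

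Of the hormone receptor genes, that of the oestrogen receptor was slightly lower and that of the progesterone receptor fell more than 2-fold. ESR1, which encodes ER alpha, was at 30.8, 30.9 and 31.1 CPM in parental and 28.7, 28.7 and 28.5 CPM in KO-labelled libraries (-0.11, SE 0.036). It passed the test as lower, but not at a coefficient of variation of 0.1 (adjusted p = 0.484, edgeR). PGR, the progesterone receptor and a classical ER target, was at 80.5, 79.5 and 79.2 and 35, 34.8 and 34.4 CPM (-1.20, SE 0.031), without overlap. Of 40 genes listed as ER targets, 10 passed the test as higher and 23 as lower, with 1 at least 2-fold higher and 7 at least 2-fold lower and a median of -0.16. Beside SUSD3, the trefoil factor TFF1 fell from 183, 185 and 185 to 41.1, 43.1 and 42.2 CPM and the adenylate cyclase ADCY9 fell by 1.60. Against this direction, SERPINA1 (alpha-1 antitrypsin) rose by 1.90. CCND1 (cyclin D1), an ER target and cell cycle driver, fell by 0.75. Of 35 nuclear receptor genes, 20 passed the test as higher and 9 as lower, with 5 at least 2-fold higher and 2 at least 2-fold lower. The retinoic acid receptor RARB rose by 1.89, the orphan receptor ESRRG by 1.25 and PPARA by 0.82.

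Transcription factors that mark luminal breast cells went both ways. Of 33 listed, 16 passed the test as higher and 12 as lower. GATA3, a pioneer factor of luminal identity, was at 455, 431 and 418 CPM in parental and 242, 244 and 263 CPM in KO-labelled libraries (-0.80, SE 0.027), with no overlap. FOXA1, the pioneer factor that opens chromatin for ER, fell by 0.42 and TBX2 fell by 1.56. SOX11 rose by 0.88 and TOX3 by 0.80. Of 58 homeobox and T-box factors, 29 passed the test as higher and 14 as lower. At least 2-fold, 10 were higher and 4 lower (2 and 2 at 5 CPM or more). Beside TBX10, the developmental factors TBX1, DLX5 and MSX1 rose by 2.65, 2.01 and 1.83 from below 1 CPM. In the HOX clusters, which pattern the body axis, HOXB9 rose from 3.22, 2.58 and 2.38 to 11.8, 14.3 and 12.3 CPM and HOXB6 rose by 2.09.

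Secreted epithelial products were often changed, in both directions. Of 38 tested, 22 passed the test as higher and 8 as lower, with 14 at least 2-fold higher and 4 at least 2-fold lower and a median of 0.51. The protease inhibitor CST1 (cystatin SN) rose from 14, 14.7 and 12.8 to 57.8, 58.6 and 58.9 CPM, whereas TCN1 and TFF1 fell. Keratins, the intermediate filaments of epithelia, went both ways. Of 19 tested, 10 passed the test as higher and 5 as lower, KRT4 fell by 1.02 and KRT80 rose by 0.60. Of 56 junction and polarity genes, 22 passed the test as higher and 22 as lower, with 3 at least 2-fold higher and 3 at least 2-fold lower. The desmosomal cadherin DSG2 fell by 1.16. Protocadherins, cell surface adhesion proteins arrayed in clusters, were lower in 19 of 46 cases and higher in 8, with a median of -0.58. At least 2-fold, 2 were higher and 12 lower. PCDHB6 fell by 1.85 and PCDHB9 by 1.32, while PCDH11X rose by 2.01. Most protocadherins were scarce. Among those averaging 5 CPM or more, the median was 0.18, with 0 at least 2-fold higher and 1 lower.

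Collagen genes rose more often than they fell. Of 31 tested, 19 passed the test as higher and 4 as lower, with 14 at least 2-fold higher and 1 at least 2-fold lower and a median of 0.97. COL17A1, the hemidesmosomal collagen, was at 5.94, 6.26 and 5.57 CPM in parental and 31.9, 31.1 and 31.2 CPM in KO-labelled libraries (2.41, SE 0.055). The basement membrane chain COL4A2 rose by 2.49. Without KO-labelled replicate 3, 14 collagen genes passed as at least 2-fold higher. Among collagen genes averaging 5 CPM or more, 4 were at least 2-fold higher and 1 lower, and the median was 0.315. Of 86 matrix, protease and integrin genes, 43 passed the test as higher and 20 as lower. At least 2-fold, 20 were higher and 7 lower (8 and 4 at 5 CPM or more). The metalloprotease inhibitor TIMP1 fell from 5.76, 5.99 and 7.34 to 1.32, 0.91 and 1.07 CPM (-2.53, SE 0.136). Of 30 S100 proteins, annexins and galectins, 11 passed the test as higher and 13 as lower, with 4 at least 2-fold higher and 2 at least 2-fold lower. S100P rose by 2.20 to 192 CPM, and the annexin ANXA3 fell by 1.48 to 61.6 CPM.

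Genes of antigen presentation rose more often than they fell. Of 31 class I genes, 16 passed the test as higher and 8 as lower, with 10 at least 2-fold higher and 0 at least 2-fold lower and a median of 0.38. Their summed level was lower in KO-labelled libraries, at 2658 to 2681 CPM against 2919 to 2958 CPM in parental ones. At 5 CPM or more, 3 of them were at least 2-fold higher and the median was 0.08. HLA-B, a class I heavy chain, was at 20.7, 18.8 and 19.1 CPM in parental and 69.6, 73.9 and 71 CPM in KO-labelled libraries (1.87, SE 0.039). The immunoproteasome subunits PSMB8 and PSMB9 rose by 2.18 and 1.68. Of 14 class II genes, 8 passed the test as higher and 2 as lower. At least 2-fold, 6 were higher and 0 lower, and 1 was higher at 5 CPM or more. HLA-DQB1 was at 11, 12.7 and 11.8 and 30.9, 32.8 and 31.2 CPM (1.42, SE 0.048), and HLA-DQA1 rose by 2.91. HLA-B and HLA-DQB1 were higher without overlap, although reads may be shared among the polymorphic HLA genes. Of 55 interferon-stimulated genes, 28 passed the test as higher and 13 as lower, with a median of 0.22. At least 2-fold, 9 were higher and 4 lower (3 and 1 at 5 CPM or more). OAS1, a sensor of double-stranded RNA, rose by 2.11 and STING1, the adaptor for cytosolic DNA, by 1.91, while HERC6 fell by 1.55.

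More cytokine genes rose than fell. Of 23 tested, 10 passed the test as higher and 3 as lower, with 7 at least 2-fold higher and 2 at least 2-fold lower. Beside CXCL17, the interleukin-1 receptor antagonist IL1RN rose by 1.88 and the death ligand TNFSF10 (TRAIL) by 1.47. TNFSF15 was at 32.5, 31 and 30.4 CPM in parental and 7.68, 7.71 and 7.45 CPM in KO-labelled libraries, and fell without overlap (-2.04, SE 0.053). Of 21 NF-kappaB genes, 8 passed the test as higher and 3 as lower, and TNFAIP2 rose by 1.83.

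Markers of blood and immune cells, checked because they could come from other cells, were scarce. Of 43 listed, 12 could be tested, and 8 of these were higher, 6 of them at least 2-fold, and 0 lower. The summed level of all 43 was 29.5 to 32.3 CPM in parental and 55.1 to 56.8 CPM in KO-labelled libraries. APBB1IP alone held about 19 CPM of the latter. PTPRC, which marks all leukocytes, had 0 counts in parental and 3 in KO-labelled libraries, and CD3E and CD2 had none in either. FCGR1A, an Fc receptor gene that rose by 2.77, overlaps the histone gene H2BC18 on chromosome 1, and their reads cannot be told apart without strand. Of 25 endothelial and fibroblast markers 9 could be tested, of which 7 were higher, 5 of them at least 2-fold, and 0 lower. Their sum was 109.8 to 115.5 CPM in parental and 175.7 to 180.8 CPM in KO-labelled libraries. VWF and EGFL7 rose by 1.46 and 1.64 and the endothelial cadherin CDH5 by 2.84. The endothelial claudin gene CLDN5, too scarce to be tested, had 34 counts in parental and 8 in KO-labelled libraries, and PLVAP had 2 and 0. Of 21 basal and mesenchymal markers tested, 10 passed the test as higher and 4 as lower, with 5 at least 2-fold higher and 2 at least 2-fold lower (1 lower without parental replicate 3 or KO-labelled replicate 2). They had a median of 0.64 that was 0.32 without KO-labelled replicate 3. The part of other cells in these values was not tested.

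Kinase signalling genes went both ways. The ERBB family list had 22 members tested, of which 13 passed the test as higher and 4 as lower, with 3 at least 2-fold higher and 0 at least 2-fold lower. Those 3 were the ligand genes EREG, HBEGF and NRG2, named after their values were seen, and each stayed below 1 CPM in both genotypes. With only the 6 DMSO libraries fitted, 1 gene of the list passed at 2-fold. ERBB2 was at 8236, 8184 and 8109 CPM in parental and 8743, 8962 and 8926 CPM in KO-labelled libraries, and EGF, which encodes an ErbB ligand, rose by 0.86. Of the 19 genes in and around the amplified segment, 5 passed the test as higher and 9 as lower, with a median of -0.05 and log2 fold changes of -0.35 for MED1 and -0.36 for CDK12. Of 38 other receptor tyrosine kinase and co-receptor genes, 14 passed the test as higher and 13 as lower, with 3 at least 2-fold higher and 5 at least 2-fold lower. GFRA1, co-receptor of RET for glial-derived neurotrophic factor, was at 2.09, 3.03 and 2.17 CPM in parental and 0.076, 0.0682 and 0.0613 CPM in KO-labelled libraries. The ephrin receptor EPHA3 fell by 2.47, while EPHB1 and EPHA7 rose by 1.59 and 1.55.

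Feedback genes of the MAP kinase pathway were split. Of 24 tested, 8 passed the test as higher and 10 as lower. The ERK-induced factor EGR1 fell from 9.21, 10.7 and 11 to 2.66, 3.66 and 3.5 CPM and SPRY4 fell by 0.96, while the phosphatases DUSP10 and DUSP8, which act on JNK and p38, rose by 1.37 and 1.17. Of 29 AP-1 and immediate-early genes, 19 passed the test as higher and 3 as lower, with 4 at least 2-fold higher and 1 at least 2-fold lower (2 lower without parental replicate 1) and a median of 0.40. JUN was at 49.6, 50.5 and 50.5 CPM in parental and 126, 130.0 and 124 CPM in KO-labelled libraries (1.34, SE 0.025), and the stress-induced factor ATF3 rose by 1.72.

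Within insulin, PI3K and mTOR signalling, 22 of 43 genes were higher and 15 lower, with 4 at least 2-fold higher and 2 at least 2-fold lower. INPP4B, a phosphatase that removes a PI3K product, was at 118, 122 and 123 CPM in parental and 37.8, 35.9 and 34.2 CPM in KO-labelled libraries (-1.75, SE 0.030). The 5-phosphatase INPP5D (SHIP1) rose by 3.25 from 0.8 CPM. IGFBP3 rose by 1.81 and the mTORC1 inhibitor SESN3 by 1.68. INPP4B was lower in all 3 KO-labelled libraries.

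Genes of the WNT, Notch and TGF-beta pathways were more often higher than lower, and YAP-TEAD genes more often lower. In the WNT pathway 23 of 37 genes were higher and 10 lower, with 11 at least 2-fold higher and 4 at least 2-fold lower and a median of 0.43. At 5 CPM or more, 1 was at least 2-fold higher and 2 lower. The non-canonical ligand WNT5A rose from 2.84, 2.09 and 2.19 to 14.2, 13.6 and 13.2 CPM, and the repressor TCF7L1 fell from 28.7, 28.7 and 26.4 to 5.8, 5.98 and 6.35 CPM. In the Notch pathway 20 of 27 were higher and 3 lower, with 5 at least 2-fold higher and 1 at least 2-fold lower (0 and 0 at 5 CPM or more, and 3 higher with only the 6 DMSO libraries fitted). The glycosyltransferase LFNG, which tunes Notch to its ligands, rose by 0.89 to 385 CPM, and the target HEY2 fell by 2.92. In the TGF-beta and BMP pathway 31 of 52 were higher and 8 lower, with 13 at least 2-fold higher and 1 at least 2-fold lower (4 and 0 at 5 CPM or more). ID3, an inhibitor of bHLH factors induced by BMPs, rose from 16.3, 16.9 and 16.8 to 49.7, 50.3 and 51.8 CPM. The receptor BMPR1B fell by 2.56. Among YAP-TEAD genes, 7 of 26 were higher and 12 lower, and the kinase LATS2 fell by 1.85.

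Cell cycle genes did not move as a block. CDKN1A, which encodes the CDK inhibitor p21, was at 5.38, 5.42 and 4.75 CPM in parental and 18, 16.9 and 17.1 CPM in KO-labelled libraries (1.74, SE 0.065), with no overlap. Of 41 listed p53 targets, CDKN1A among them, 21 passed the test as higher and 11 as lower, with 6 at least 2-fold higher and 3 at least 2-fold lower. BTG2, an antiproliferative gene, rose by 1.40, whereas TP53I3 fell by 1.97 and the death receptor TNFRSF10A by 1.63. Of 36 cyclins, kinases and their inhibitors, 15 passed the test as higher and 16 as lower. E2F1, which switches on S-phase genes, fell by 1.05 and the pocket protein RBL1 by 1.38. Both lie on chromosome 20, whose runs of falls are described below. Of 57 DNA replication genes, 13 passed the test as higher and 33 as lower, none of them 2-fold, with a median of -0.12. The helicase subunit MCM2 fell by 0.57 and the origin subunit ORC1 by 0.72. Mitotic genes ran the other way, with 41 of 59 higher and 7 lower, none of them 2-fold, and a median of 0.18. MKI67, the proliferation marker, rose by 0.52 and the checkpoint kinase BUB1 by 0.58. The share of these cells in S phase was not measured, and its part in the histone values above was not tested.

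Of 58 DNA repair genes, 16 passed the test as higher and 26 as lower. The damage kinase ATM fell by 0.88, the checkpoint kinase CHEK1 by 0.70 and RAD51D, which loads the recombinase, by 0.91. ATM and CHEK1 both lie on chromosome 11, which had the lowest median of the chromosomes, as given below. Of 39 apoptosis genes, 17 passed the test as higher and 16 as lower, with 5 at least 2-fold higher and 0 at least 2-fold lower. Without parental replicate 3 or KO-labelled replicate 2, 3 were at least 2-fold higher. The pro-apoptotic BH3-only genes BMF and BBC3 (PUMA) rose by 1.29 and 1.19. BBC3 was at 15, 14.8 and 14 CPM in parental and 32.3, 33.6 and 34.3 CPM in KO-labelled libraries.

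Stress responses were mixed. Of 46 heat-shock and chaperonin genes, 22 passed the test as higher and 17 as lower. HSPB1 (HSP27) was at 552, 568 and 538 CPM in parental and 985, 1046 and 1052 CPM in KO-labelled libraries (0.90, SE 0.022). HSPA6, an inducible HSP70 with a near-copy beside it, rose by 4.55 from 0.0691 CPM. Of 37 endoplasmic reticulum stress genes, 11 passed the test as higher and 22 as lower. The lumenal chaperones HSP90B1 and HYOU1 fell by 0.79 and 0.68, and HERPUD1 rose by 0.86. Of 47 genes of ATF4 and amino acid synthesis, 18 passed the test as higher and 26 as lower. ASS1, which makes argininosuccinate, rose from 33.7, 31.5 and 34.2 to 99.4, 99.5 and 95.4 CPM, and the proline enzyme PYCR1 fell from 376, 384 and 382 to 172, 171 and 169 CPM. Of 33 amino acid transporters, 10 passed the test as higher and 15 as lower, with 4 at least 2-fold higher and 3 at least 2-fold lower. SLC43A2 rose by 1.40 and SLC6A14 fell by 1.76.

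In energy metabolism, glycolysis genes went both ways, ALDOC above among them. LDHB, a lactate dehydrogenase, fell by 1.75 and the lactate exporter SLC16A3 rose by 1.53, in a list where 21 of 53 genes were higher and 16 lower. Among hypoxia genes 15 of 35 were higher and 12 lower, with 1 at least 2-fold higher and 6 at least 2-fold lower. SPAG4 was at 8.93, 9.26 and 9.4 CPM in parental and 0.279, 0.387 and 0.399 CPM in KO-labelled libraries, and the carbonic anhydrase CA9 fell by 2.81. Of 100 nuclear genes of the TCA cycle and respiratory chain, 25 passed the test as higher and 48 as lower, with a median of -0.06. IDH1 rose by 0.90 and the ATP synthase subunit ATP5MC1 fell by 0.95.

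Changes in lipid and drug metabolism ran in both directions. Of 85 steroid, retinoid and drug enzymes, more rose than fell: 45 passed the test as higher and 21 as lower, with a median of 0.32. At least 2-fold, 21 were higher and 8 lower (8 and 1 at 5 CPM or more). DHRS9 and CYP2B7P, described above, led the list in either direction among genes of at least 10 CPM. Of 34 cholesterol genes, 12 passed the test as higher and 17 as lower. NPC1L1, an intestinal cholesterol importer, rose by 3.17 to 1.99 CPM. Of 66 fatty acid and lipid genes, 28 passed the test as higher and 22 as lower, with 5 at least 2-fold higher and 4 at least 2-fold lower. PLIN2, which coats lipid droplets, fell by 2.45 to 1.64 CPM. Among genes of NRF2, glutathione and metal binding, 26 of 56 were higher and 20 lower, with 4 at least 2-fold higher and 2 at least 2-fold lower. The glutathione peroxidase GPX2 rose from 0.528, 0.617 and 0.502 to 7.17, 6.82 and 8.1 CPM.

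Genes more typical of excitable cells rose more often than they fell. Of 95 ion channel genes, 54 passed the test as higher and 22 as lower, with 36 at least 2-fold higher and 6 at least 2-fold lower and a median of 0.61. Among channel genes averaging 5 CPM or more, 8 were at least 2-fold higher and 2 lower, and the median was 0.0323. Over all 95, log2 fold changes ran from -5.94 to 3.52. GRIK3, a kainate receptor subunit, was at 7.2, 7.25 and 7.13 CPM in parental and 45, 47 and 48.4 CPM in KO-labelled libraries (2.7, SE 0.049). Of 65 neuronal and synaptic genes, 36 passed the test as higher and 13 as lower, with 19 at least 2-fold higher and 3 at least 2-fold lower. At 5 CPM or more, 7 of these were at least 2-fold higher and none lower. GRIK3 was higher in KO-labelled cells without overlap. Of 51 G protein-coupled and purinergic receptor genes, 25 passed the test as higher and 17 as lower. At least 2-fold, 8 were higher and 7 lower (4 lower without KO-labelled replicate 3). Among those averaging 5 CPM or more, 3 were at least 2-fold higher and 1 lower. GPER1, a membrane receptor reported to bind oestrogen, rose from 6.52, 6.07 and 5.84 to 26.9, 28.3 and 27.2 CPM and the histamine receptor HRH1 rose by 3.06. GRPR, the receptor for gastrin-releasing peptide, fell from 10.1, 9.8 and 9.45 to 0.836, 0.66 and 0.552 CPM.

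RNA processing genes leaned downwards. Of 93 splicing factor genes, 22 passed the test as higher and 53 as lower. The splicing regulators PTBP2, SRSF6 and HNRNPA1 fell by 1.07, 0.76 and 0.67. The long non-coding RNAs NEAT1 and MALAT1, which stay in the nucleus, fell by 1.22 and 0.94. NEAT1 was at 451, 449 and 449.7 CPM in parental and 188, 191 and 200.2 CPM in KO-labelled libraries. Among circadian clock genes, 10 of 22 were higher and 8 lower. The repressors BHLHE40 and PER3 fell by 1.27 and 1.09. The other 19 lists and families had median log2 fold changes between -0.22 and 0.33.

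Part of the genes changed at least 2-fold lay next to others changed the same way. Of 1434 genes at least 2-fold higher that could be placed on an autosome or the X chromosome, 485 (33.8%) lay in 193 runs of adjacent tested genes that were all at least 2-fold higher. Of 558 genes at least 2-fold lower, 128 (22.9%) lay in 49 such runs. Over all genes tested, 8.89% were at least 2-fold higher and 3.46% at least 2-fold lower. The share in runs to expect from these rates was not computed. Some runs hold overlapping or near-identical genes, such as HAR1A with HAR1B and H2AC18 with H2AC19, whose reads may be shared. The genes named in the rest of this paragraph were chosen after their values were seen. The longest run of rises was of 13 genes, histone genes and FCGR1A on chromosome 1, and other histone runs lay on chromosome 6. On chromosome 19 the longest run of rises held 6 genes, 5 of the CYP4F cytochrome P450 cluster and UCA1, a long non-coding RNA that rose by 1.31. CYP4F12 was at 0.906, 1.15 and 1.03 CPM in parental and 9.23, 9.23 and 9.66 CPM in KO-labelled libraries. On chromosome 14 CRIP1 rose with its neighbours TEDC1 and TMEM121 (1.27 and 2.53). The longest run of falls was of 8 protocadherin beta genes on chromosome 5, PCDHB8 to PCDHB14. On chromosome 19, 5 adjacent kallikrein genes were at least 2-fold lower, KLK10 to KLK14, among which KLK10 fell by 3.96 and KLK12 by 4.15. On chromosome 20 a run held SNHG17, SNHG11, RALGAPB and ACTR5, with RPRD1B, and another held SRC, BLCAP, RPN2 and MANBAL. The tyrosine kinase SRC was at 11.6, 12 and 11.9 CPM in parental and 2.53, 2.32 and 2.21 CPM in KO-labelled libraries (-2.32, SE 0.089). By chromosome, the median log2 fold change ranged from -0.17 on chromosome 11 and -0.16 on chromosome 20 to 0.18 on chromosome 14 and 0.23 on chromosome 8. Chromosome 20 had the highest share of 2-fold falls, 8.47% of its genes tested, and 8.47% rose at least 2-fold. On chromosome 11, 5.37% fell and 7.31% rose at least 2-fold. E2F1, RBL1, EIF2S2, SPAG4 and FER1L4, described above, also lie on chromosome 20. ATM, CHEK1, PGR, RPS25, HYOU1 and NFRKB lie on chromosome 11. A regional change of transcription and a change of gene copy number cannot be told apart in these data. Neither was tested for these genes.

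**Figure D4:**
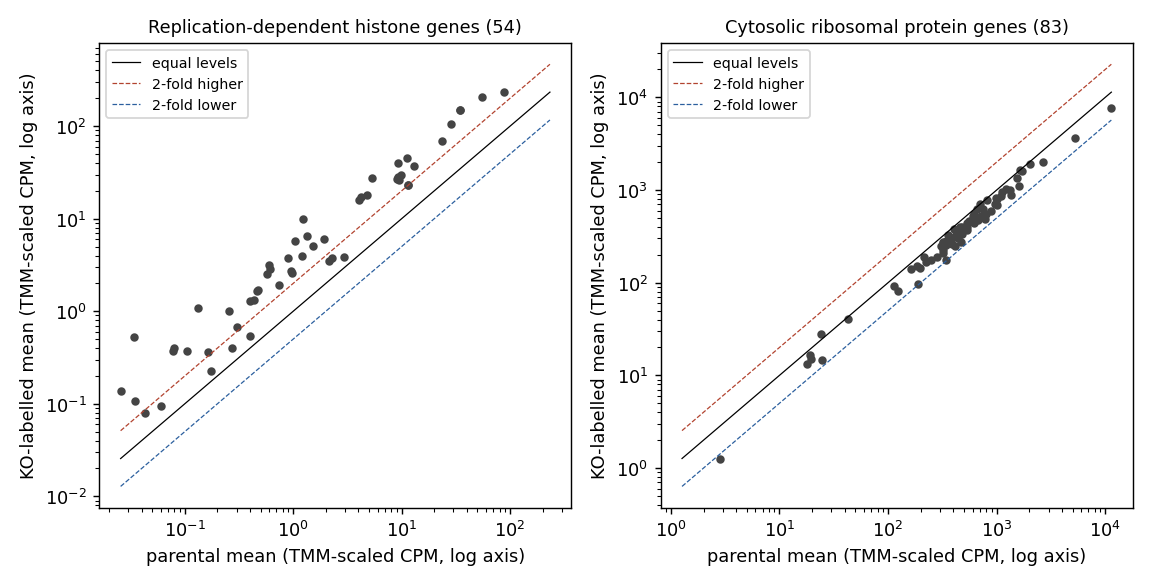
Mean level in KO-labelled against parental cells (TMM-scaled CPM, both axes log) for replication-dependent histone genes (left, 54 genes) and cytosolic ribosomal protein genes (right, 83 genes), 1 point per gene, with lines for equal levels and for 2-fold differences. Most histone genes lie above the 2-fold line, and nearly all ribosomal protein genes lie just under the line of equal levels.

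The same genotypes were compared after 4 h of neratinib, in 6 libraries of which none enters the DMSO contrast. Of the 1441 genes at least 2-fold higher in DMSO, 920 (63.8%) were also at least 2-fold higher in neratinib, where 1284 genes (7.92% of those tested) were. Those 920 were 71.7% of the neratinib set. Of the 561 at least 2-fold lower, 280 (49.9%) were also at least 2-fold lower, which was 53.2% of 526 in neratinib (3.25% of those tested). None of the genes higher in DMSO and 3 of those lower were changed at least 2-fold the opposite way. TBX10 differed by 4.69 in DMSO and 5.31 in neratinib, TCN1 by -6.64 and -6.19, and MYC by -2.72 and -2.78. For H3C4 the values were 3.03 and 1.77, and for PGR -1.20 and -1.35. Over the 1441 higher genes the median log2 fold change was 1.66 in DMSO, which chose them, and 1.29 in neratinib. Over the 561 lower genes it was -1.33 and -1.01.

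A test of the difference between the genotype effects in DMSO and in neratinib, beyond 2-fold with glmTreat, called 49 genes (0.302% of those tested). Of the genes at least 2-fold changed in DMSO it called 18 of the higher and 6 of the lower. NDST4 differed by 3.38 in DMSO and 1.30 in neratinib, CAPN9 by 3.09 and 1.66, and GPER1 by 2.16 and 0.62. IGFBP3 differed by 1.81 in DMSO and 0.16 in neratinib, and RUFY3 by -2.43 and -0.61.

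**Figure D5:**
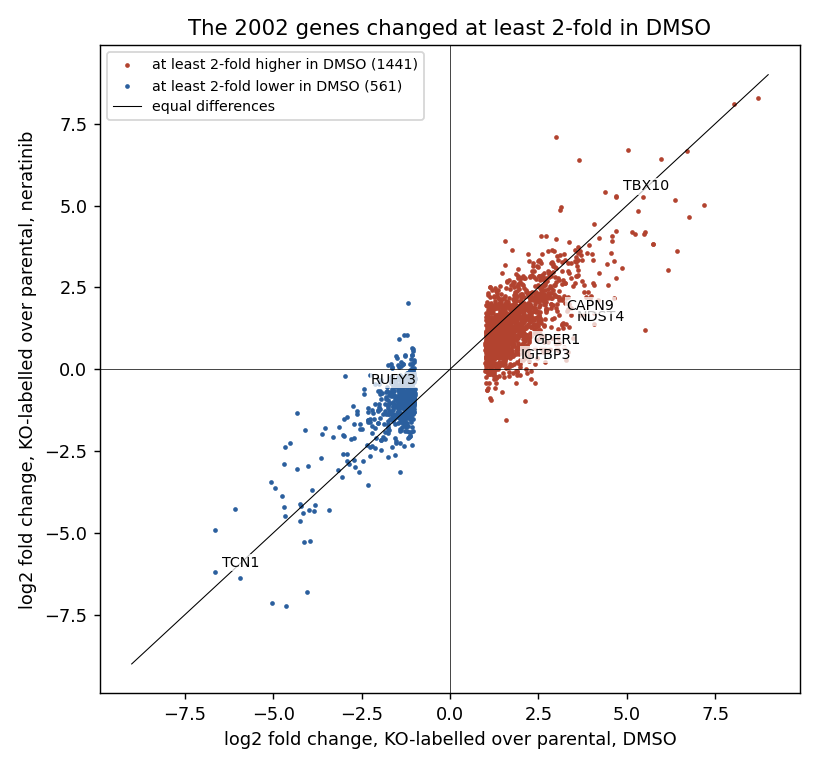
Log2 fold change of KO-labelled over parental cells in neratinib (vertical axis) against that in DMSO (horizontal axis) for the 2002 genes at least 2-fold changed in DMSO, 1 point per gene, with a line of equal differences. TBX10 and TCN1 lie near that line, and NDST4, CAPN9, GPER1, IGFBP3 and RUFY3 lie between it and the horizontal line at 0.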

How the data were processed

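Polyadenylated RNA was sequenced as single reads, per the labels' protocols. The authors deposited gene-level read counts, as whole numbers without normalization, in 1 table. The submitters' processing notes name FastQC 0.11.7, STAR 2.7.9, edgeR 3.40.2 and the GRCh38 genome. The counting program, annotation and strand setting are not given in the sources used here, so reads of overlapping, antisense or near-identical genes cannot be separated. Lines without a gene symbol, 581 of 28395, held 0.0877% to 0.0984% of the counts of a DMSO library and were left out. Columns were matched to samples by title.

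Genes were filtered with edgeR's filterByExpr (16208 kept), scaled by TMM and fitted over all 12 libraries with 4 group means, leaving 8 residual degrees of freedom (edgeR 4.0.16, R 4.3.3). The quasi-likelihood test compared KO-labelled with parental DMSO libraries, and p-values were adjusted by Benjamini-Hochberg over all genes tested. SE is the absolute log2 fold change divided by the square root of the F statistic. A gene was called below an adjusted p of 0.05. Changes beyond 2-fold, and the difference between the genotype effects in DMSO and neratinib, were tested with glmTreat. On simulated counts for 16208 genes, 47 of 50 genes changed 1.5-fold and 50 of 50 changed 2-fold were called. There were 7 false calls among the 16008 genes left unchanged. The changed genes were drawn only from those not scarce in parental cells, and the spread was that of the fit. In the data 71.6% of genes were called, so these rates check the procedure and do not give the error rates of this comparison.

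The comparison, the 69 gene lists and 15 symbol families, and the naming rule were chosen with earlier results of these data known. The rule named 9 genes in any case (BRD8, EP400, KAT5, MYC, ESR1, PGR, ERBB2, CCND1, CDKN1A). It added the 12 largest rises and falls among genes changed at least 2-fold with at least 10 CPM and no overlap, the 10 largest gains and losses in CPM, and up to 4 called members per list with at least 1 CPM, from which the text takes those described. Y-linked genes and XIST were left out. A few genes that the rule named are not reported here. Lists were described by counts and medians, with no set test. Of 27814 genes, 27341 matched RefSeq (GRCh38.p14) by symbol and 283 by a synonym. Motifs were searched in RefSeq promoters, 250 bases before to 50 after the start. The alternatives were other scalings, DESeq2 1.42.0, other filters, only the 6 DMSO libraries, a replicate block, a fixed coefficient of variation and leaving out each library.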

Additional observations from a re-analysis of the deposited data

Results flagged for a closer look

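The genotype effect differed between DMSO and neratinib by more than 2-fold (edgeR glmTreat on the difference, Benjamini-Hochberg adjusted over all genes tested) in 6 genes named above. The difference is the log2 fold change in DMSO minus that in neratinib. It was 2.08 for NDST4 (SE 0.11, adjusted p = 5.11e-10), 1.65 for IGFBP3 (SE 0.0935, adjusted p = 1.31e-06), 1.54 for GPER1 (SE 0.085, adjusted p = 1.24e-05) and 1.43 for CAPN9 (SE 0.088, adjusted p = 0.000847). In these 4 genes the fitted level of KO-labelled cells was higher under both conditions, and by less in neratinib. It was -1.82 for RUFY3 (SE 0.159, adjusted p = 0.000315), whose log2 fold change was -2.43 in DMSO and -0.61 in neratinib. It was -2.07 for SPRY4 (SE 0.241, adjusted p = 0.00293), whose log2 fold change was -0.96 in DMSO and 1.11 in neratinib. Why these effects differ was not tested.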

How the results depend on the processing

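Of the values of the 8 counts of changed genes under other settings, 99 stayed within 1.5 times the count reported and 8 did not. With the coefficient of variation set to 0.1, 6974 genes were called at any size, 3732 higher and 3242 lower. Limited to genes averaging 5 CPM or more, which leaves fewer genes to test, 549 were changed at least 2-fold (383 higher, 166 lower), 427 beyond 2-fold by glmTreat, and the genotype effect differed between DMSO and neratinib in 31. DESeq2-style size factors moved the median of all genes from 0.002 to -0.0125 and library totals to 0.0144 on the log2 scale. Of 2797 pairs of a named gene and a setting, 2778 kept direction and side of the threshold. LGALS1 changed sign: leaving out 1 library at a time gave -0.7246 (without KO-labelled replicate 3) to 1.824 (without replicate 2). The median of bromodomain and acetyltransferase genes ranged from -0.00291 to 0.0296 with 1 library left out, and that of protocadherins was 0.181 at 5 CPM or more. For the lists described, 1157 of the counts at 2-fold under other settings stayed within 1.5 times and 75 did not, 60 of these at 5 CPM or more, where fewer genes are tested. Their medians moved by no more than the spread over the KO-labelled libraries in 746 cases and by more in 162, 38 of these at 5 CPM or more, beside the 2 that changed sign. The causes were not tested.

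Replicate numbers are shared by the groups, but same-numbered libraries did not deviate together (correlations of -0.0857, 0.0468 and -0.115), and not every library correlated best with its own number. With a replicate block, 11553 genes were called at any size, 1988 at least 2-fold (1436 higher, 552 lower) and 1068 beyond 2-fold. Below about 1 CPM, few counts per library limit the precision of single genes.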
